A study of Mus musculus with 2 samples.

Results

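The members are the 41 genes of the COPII coat, the COPI coat and the cargo receptors that load these coats, with the p24 proteins and the Golgi tethers that work beside them, of 43346 genes in the deposited tables. They were chosen by name, with earlier results of these data known and no measured value in the rule, and fall into 5 classes: 13 COPII genes, 11 COPI genes, 7 genes of the p24 family, 7 cargo receptors and 3 genes of tethers and Golgi matrix. All 41 symbols were found in the tables. The tissue was whole pancreas from 1 adult female mouse of the inbred strain C57BL/6J, aged 10 weeks, and the labels name no allele, treatment or second condition. Its polyadenylated RNA was read in 2 libraries that the labels call technical replicates, so there is 1 group, and every spread given here is technical and says nothing about differences between mice.

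Proteins made for secretion leave the endoplasmic reticulum (ER) in vesicles coated by COPII and reach the Golgi, while vesicles coated by COPI carry escaped ER proteins, receptors and coat machinery back. Small GTPases start each coat, an inner layer picks cargo, an outer layer bends the membrane, and receptors that span the membrane connect soluble cargo to the coat. The acinar cell of the pancreas, which fills most of the organ, is a classic cell for this route because it makes and exports digestive enzymes at a very high rate.

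The levels are deposited TPM, which scales every library to the same total, corrects for transcript length and allows genes to be compared within a library. All 41 members reached 1 TPM in both libraries. Their summed level was 1103 TPM in replicate 1 and 851.6 TPM in replicate 2. The median member stood at 17.9 TPM in replicate 1 and 15.4 TPM in replicate 2, against 4.99 and 4.16 TPM for the 9964 coding genes at 1 TPM or more in both libraries, and 37 of the 41 members lay above that median in both. By deposited TPM 31 of the 41 members were higher in replicate 1. The median of the coding genes was higher in replicate 1 as well, so this direction was not particular to the members. The share over all genes is not given here. For the level of any gene in bulk tissue, the number of cells of a type and the RNA per cell cannot be told apart.

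The libraries held 9441559 and 9797569 expected counts in replicates 1 and 2, and the members took 0.192% and 0.126% of them. Mitochondrial genes with their nuclear copies, together with Gm42418, Gm26917 and Lars2, took 38.6% and 52.6% of the counts, and 46.5% and 44.1% of the TPM. With TPM rescaled without these genes the members summed to 2063 and 1523 TPM, and 31 of 41 were again higher in replicate 1. Of the marker lists of 12 cell types and tissues, the acinar list had the highest summed TPM, and by the mean of the libraries it was led by the chymotrypsinogen gene Ctrb1 at 27460 and 38071 TPM. By the same mean the other lists were led by Ins2 (islet, 13969 and 17977 TPM), Dcn (fibroblast, 442 and 218 TPM), Fabp4 (adipocyte, 254 and 146 TPM), Igkc (B and plasma cell, 165 and 92.8 TPM), Plvap (endothelium, 98.6 and 127 TPM), Acta2 (smooth muscle, 89.1 and 60.9 TPM), Lyz2 (macrophage, 86.4 and 82.7 TPM) and Krt19 (duct, 18.0 and 21.1 TPM). The intestinal marker Lyz1 stood at 4.89 and 2.51 TPM, the T cell marker Cd3d at 0.79 and 0.23 TPM, and the liver marker Alb at 0.61 and 0.56 TPM.

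Promoter sequences are shown here because many members share a short motif beside the start of the gene. RefSeq windows on build GRCm38.p6, which run from upstream of each annotated start to 50 bases after it, were held for 36 of the 41 members. Arcn1, Kdelr2, Lman1, Tmed2 and Tmed7 had no entry. In total 9 motifs were searched on both strands, and this search was chosen after other results of these data had been seen. TGACGTGG, known as the unfolded protein response element, occurred in the windows of 7 of the 36 members (19.4%): Arf1, Copb1, Copb2, Kdelr3, Sec16b, Sec23a and Sec24d. It occurred in 82 of 7931 coding genes with a window that reached 1 TPM in both libraries (1.03%) and in 193 of all 27025 genes with a window (0.714%). GCCACGT, a core that the secretory factor Xbp1 is known to bind, occurred in 15 members (41.7%), against 4.93% of the expressed coding genes and 2.95% of all genes. The motifs can overlap, since the reverse complement of GCCACGT shares 6 bases with TGACGTGG, and 5 members held both. Either motif was present in 17 of 36 members, in 10 of the 68 other pathway genes with a window (14.7%) and in 440 of the 7931 expressed coding genes (5.55%). Mean GC content was alike, at 61.1% in the members' windows and 60.9% in those of the expressed coding genes.

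The shorter TGACGTG was found in the same 7 members (19.4%, against 3.44% of expressed coding genes), CCACG in 29 members (80.6% against 52.7%), CCAAT in 14 (38.9% against 42.3%) and GGGCGG in 25 (69.4% against 70.6%). TGACGTG lies inside TGACGTGG, and CCACG inside both GCCACGT and the reverse complement of TGACGTGG. Every window with TGACGTGG therefore holds TGACGTG, and every window with either motif holds CCACG. Neither count stands apart from those above. The longer ER stress elements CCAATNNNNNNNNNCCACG (0.189% of expressed coding genes), the same with its last base free (0.429%) and ATTGGNCCACG (0.101%) matched no member window. A match is a description of these letters and not evidence of binding. The members with either motif had medians of 17.9 and 19.6 TPM in replicates 1 and 2, and the 19 members with a window and neither motif had medians of 17.5 and 14.1 TPM.

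The following 100-base stretches end at the base before the RefSeq start and were picked as examples from the windows whose match lies wholly inside that stretch. They are written 5′ to 3′ on the strand of the gene, with the matched letters in capitals, and the match begins 26 bases before the start in Sec24d, 44 in Sec16b, 31 in Kdelr3, 28 in Copb1 and 57 in Uso1. The Copb1 stretch holds TGACGTGG alone, on the opposite strand. The Uso1 stretch holds GCCACGT in 2 copies.
Sec24d, chr3:123267396-123267495, plus strand: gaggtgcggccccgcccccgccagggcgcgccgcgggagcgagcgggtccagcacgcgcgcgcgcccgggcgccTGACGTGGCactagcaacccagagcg
Sec16b, chr1:157506696-157506795, plus strand: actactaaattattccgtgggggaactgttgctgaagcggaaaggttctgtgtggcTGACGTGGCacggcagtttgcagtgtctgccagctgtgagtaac
Kdelr3, chr15:79516308-79516407, plus strand: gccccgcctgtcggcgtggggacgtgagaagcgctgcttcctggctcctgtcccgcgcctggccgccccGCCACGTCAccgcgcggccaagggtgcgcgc
Copb1, chr7:114254681-114254780, minus strand: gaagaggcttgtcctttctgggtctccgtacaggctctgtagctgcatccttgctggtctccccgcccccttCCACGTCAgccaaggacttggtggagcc
Uso1, chr5:92137838-92137937, plus strand: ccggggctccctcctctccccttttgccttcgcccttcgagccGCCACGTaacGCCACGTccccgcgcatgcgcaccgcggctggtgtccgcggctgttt

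The 13 COPII genes summed to 233 ± 61.8 TPM (SD, n = 2 technical libraries), with 277 TPM in replicate 1 and 189 TPM in replicate 2. Coat assembly starts with the GTPase Sar1, which Preb, the mammalian Sec12 exchange factor, loads at the ER. Preb stood at 47.3 TPM in replicate 1 and 44.6 TPM in replicate 2. Sar1a stood at 17.9 and 20.8 TPM, and Sar1b, the paralogue known for the export of very large lipoprotein particles, at 10.3 and 5.01 TPM. Sar1a was therefore the higher paralogue in both libraries, by 1.75-fold (95% interval 1.39 to 2.22) and 4.15-fold (2.98 to 5.93). The intervals of this ratio do not overlap between the libraries.

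Sec16 proteins scaffold the ER exit sites where the coat forms. Sec16a was at 13.7 and 8.84 TPM, and the shorter paralogue Sec16b at 2.25 and 2.04 TPM. The inner coat pairs Sec23, the GTPase-activating subunit, with Sec24, which binds the export signals of cargo. Sec23b stood at 14.3 and 9.10 TPM and Sec23a at 4.38 and 3.66 TPM, a ratio of 3.27 (2.65 to 4.04) in replicate 1 and 2.49 (1.85 to 3.36) in replicate 2. Sec23b led in both libraries. Mutation of the human SEC23B gene is known to cause a form of congenital dyserythropoietic anaemia, and the balance of the Sec23 paralogues differs between tissues.

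Of the Sec24 paralogues, Sec24b was at 17.5 and 7.89 TPM and Sec24c at 9.54 and 9.15 TPM. Sec24d followed at 6.91 and 5.38 TPM, and Sec24a at 3.54 and 1.79 TPM. Their order was Sec24c, Sec24d, Sec24a in both libraries, with every step apart from 1 beyond counting error. The place of Sec24b changed, since it led Sec24c by 1.83-fold in replicate 1 (1.57 to 2.14) and stood at 0.862 times its level in replicate 2 (0.693 to 1.07). The outer coat is a cage of Sec13 and Sec31. By gene-level TPM Sec31a was the highest COPII gene at 104 and 49.97 TPM, but on complete coding transcripts it stood at 6.34 and 7.27 TPM, below Sec13 at 19.04 and 15.33 TPM. Sec13, which also serves in the nuclear pore, was at 25.2 and 21.2 TPM by gene.

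The 11 COPI genes summed to 437 TPM in replicate 1 and 308 TPM in replicate 2, or 372 ± 91.5 TPM (SD, n = 2 technical libraries). COPI is recruited whole as a complex of 7 subunits by GTPases of the Arf family. Arf1 stood at 45.7 and 43.9 TPM and Arf4 at 45.3 and 31.2 TPM. The pair was level in replicate 1, with a ratio of 1.01 (0.901 to 1.13), and Arf1 was higher in replicate 2, by 1.41-fold (1.23 to 1.61). On complete coding transcripts, a split described further on, Arf1 was the higher in both, by 2.29-fold and 2.08-fold.

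The alpha, beta′ and epsilon subunits form the outer layer. The alpha subunit Copa was at 63.0 and 35.7 TPM, the beta′ subunit Copb2 at 23.4 and 19.6 TPM, and the epsilon subunit Cope at 23.98 and 48.7 TPM. Cope was the one of these higher in replicate 2. On complete coding transcripts Copa stood at 16.3 and 12.3 TPM, below Copb2 at 18.7 and 14.3 TPM, with Cope at 10.6 and 24.9 TPM. The inner layer holds Copb1 (beta) at 14.02 and 8.52 TPM, and Arcn1 (delta) at 25.1 and 13.8 TPM. Its gamma subunit comes from Copg1, at 19.8 and 17.8 TPM, or Copg2, at 1.24 and 2.69 TPM. Copg1 exceeded Copg2 by 16.0-fold (11.6 to 22.5) in replicate 1 and 6.62-fold (5.06 to 8.78) in replicate 2, and Copg2 was the lowest member by mean TPM. With the deposited posterior mean TPM the ratio was smaller, at 4.41 and 3.01.

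The zeta subunit likewise has a pair of genes. Copz2, at 157 TPM in replicate 1 and 62.4 TPM in replicate 2, had the highest mean level of all 41 members, and Copz1 stood at 18.4 and 23.3 TPM. The gene-level ratio of Copz2 to Copz1 was 8.54 (7.35 to 9.95) in replicate 1 and 2.68 (2.25 to 3.19) in replicate 2. This order was not kept on complete coding transcripts, where the ratio was 0.681 in replicate 1 and 1.00 in replicate 2, and the transcripts behind it are described further on.

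The 7 p24 genes summed to 173 and 164 TPM, or 169 ± 6.41 TPM (SD, n = 2 technical libraries). These type I membrane proteins cycle between ER and Golgi as mixed oligomers and are known as receptors for proteins with a glycosylphosphatidylinositol anchor. Tmed2 stood at 61.6 and 48.6 TPM, Tmed3 at 43.2 and 46.9 TPM, and Tmed10, also called p23 or p24 delta, at 32.7 and 23.6 TPM. Tmed9 followed at 12.5 and 20.8 TPM, Tmed4 at 11.9 and 14.1 TPM, and Tmed7 and Tmed5 at 5.10 and 5.88 TPM and at 6.19 and 4.40 TPM. Tmed3 exceeded Tmed10 in both libraries, by 1.32-fold (1.18 to 1.48) and 1.99-fold (1.75 to 2.25). Tmed7 and Tmed5 changed places, with a ratio of 0.824 (0.686 to 0.992) in replicate 1 and 1.34 (1.04 to 1.72) in replicate 2. On complete coding transcripts Tmed2 was below Tmed3, at 0.655 and 0.427 times its level.

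The 7 cargo receptors summed to 151 and 145 TPM, or 148 ± 4.23 TPM (SD, n = 2 technical libraries). Lman1, the mannose lectin also called ERGIC-53, works with the calcium-binding protein Mcfd2 to export clotting factors and other glycoproteins. Mcfd2 was the highest of the class at 39.8 and 45.5 TPM, and Lman1 stood at 20.1 and 15.4 TPM. The ratio of Mcfd2 to Lman1 was 1.98 (1.76 to 2.23) in replicate 1 and 2.96 (2.59 to 3.38) in replicate 2. The related lectin Lman2, or VIP36, was lower, at 10.2 and 10.0 TPM. Surf4, which carries many soluble secretory proteins, was at 22.0 and 20.3 TPM.

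The KDEL receptors return escaped ER chaperones. Kdelr1 stood at 31.0 and 29.2 TPM, Kdelr2 at 17.5 and 13.0 TPM, and Kdelr3 at 10.3 and 11.5 TPM. Kdelr1 exceeded Kdelr2 by 1.77-fold (1.51 to 2.09) and 2.24-fold (1.84 to 2.73). Kdelr2 was above Kdelr3 beyond counting error in replicate 1, with a ratio of 1.69 (1.35 to 2.13), and not in replicate 2, with a ratio of 1.13 (0.885 to 1.46).

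Among the tether and matrix genes, Gorasp2, the stacking protein GRASP55, stood at 42.7 and 29.7 TPM. The tether Uso1, or p115, was at 12.4 and 9.08 TPM, and its Golgi partner Golga2, or GM130, at 9.66 and 6.88 TPM. All 3 were higher in replicate 1 by TPM.

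**Figure D1:**
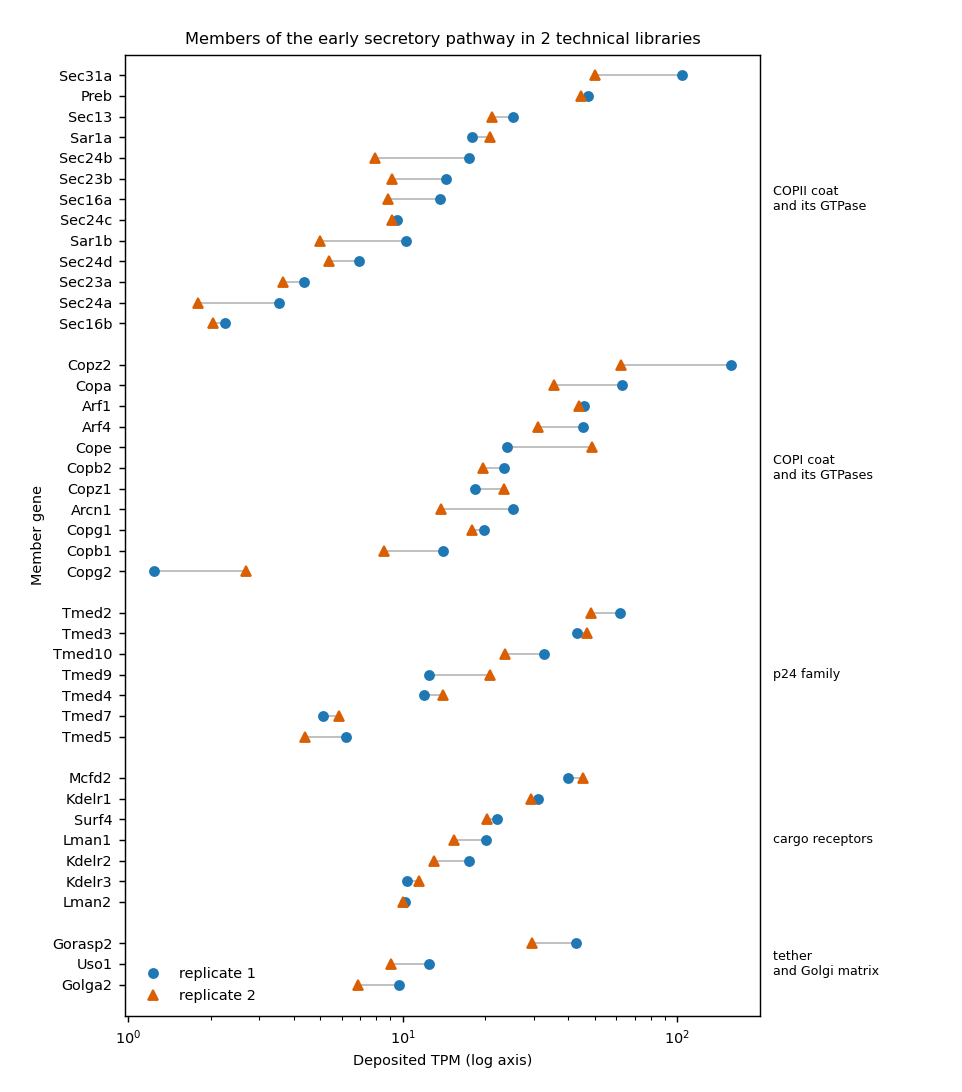
Deposited TPM of the 41 members on a log axis, grouped by class and ordered by mean, with a circle for replicate 1, a triangle for replicate 2 and a grey line joining them. All points lie above 1 TPM, Copz2 spans 62.4 to 157 TPM, and Cope, Copg2 and Tmed9 have the triangle well to the right of the circle.

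In all, 18 pairs of related members were compared within each library. The families were named first, but the steps within the Sec24, Kdelr and p24 families and the direction of Copz2 over Copz1 were set after the values had been seen, so part of the agreement in order follows from that choice. The order was the same in both libraries for 16 pairs, and 11 of these had an interval apart from 1 in both. Tmed7 over Tmed5 had intervals apart from 1 in both libraries but in opposite directions. These intervals cover counting error alone, and PCR copies of a molecule may be among the counted reads. Within the Sec23 pair the ratio on complete coding transcripts was lower than by gene, at 1.24 and 1.82. The Sec16 ratio fell from 6.09 and 4.33 by gene to 1.36 and 1.06 on complete coding transcripts.

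**Figure D2:**
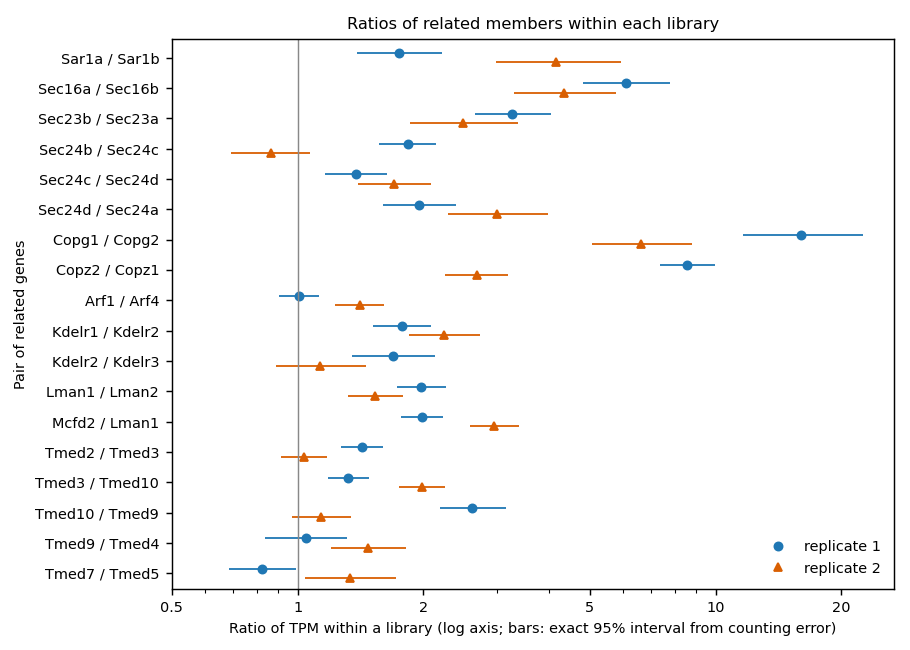
Ratio of TPM between related members within each library on a log axis, with exact 95% intervals from counting error as bars. The vertical line marks a ratio of 1, and only Sec24b over Sec24c and Tmed7 over Tmed5 fall on different sides of it in the 2 libraries.

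The libraries were then compared gene by gene, replicate 2 over replicate 1, on scaled counts. This compares 2 libraries of the same mouse with counting error only and has no replicate check. Calls needed both an adjusted p below 0.05, from the exact binomial test, and a difference of at least 1 on the log2 scale. Of the 41 members, all of which were tested, 3 were higher in replicate 2, 0 were lower and 38 were not called. Over all 12452 genes tested, 12.3% were called, 8.31% higher and 4.0% lower, so 3 of 41 lies near the background and is no result about the members. An adjusted p under 0.05 at any size was found for 22 of the 41 members, a larger share than the 36.2% of all genes. The members' median level was 17.9 and 15.4 TPM, against 3.85 and 3.24 TPM for all tested genes. A test on counting error passes smaller differences at higher counts, and the members were not compared with genes of similar count. Whether counts account for the larger share was not tested, and it is not read as a result about the members. The members' median log2 ratio was -0.06, that of all tested genes was -0.01, and 17 of 41 members had a ratio above 0.

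Cope (chromosome 8, 70302518 to 70312993) had 240 counts in replicate 1 and 373 in replicate 2, a log2 ratio of 1.12 (0.88 to 1.36) with an adjusted p of 1.06e-19 in the exact binomial test. Tmed9 (chromosome 13, 55573732 to 55597697) had 137 and 198 counts, a log2 ratio of 1.01 (0.69 to 1.34). Copg2 (chromosome 6, 30747554 to 30896794) had 41 and 62 counts, a log2 ratio of 1.07 (0.49 to 1.69). All 3 lower bounds lie under the size threshold of 1. In the opposite direction the most negative ratio was that of Sec24b, with 310 and 122 counts and a log2 ratio of -0.86 (-1.18 to -0.56), which was not called.

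Which members were called depended on the scaling. Scaling by library totals in place of TMM factors moved every log2 ratio by -0.54, and then 0 members were called higher and 9 lower, none of them Cope, Copg2 or Tmed9, while 23.7% of all genes were called. Over all genes the higher calls were 67.5% of the calls with TMM factors and 11.6% with library totals. After a trend on GC content and transcript length was removed, 40 members and 12324 genes in all were tested. Of these members 1, Copg2, was called, against 7.91% of all genes, and 48.0% of all calls were higher. With an assumed dispersion of 0.1 in edgeR's exact test 0 members and 45 genes in all were called. At a size threshold of 1.5-fold 9 members were called, 4 higher and 5 lower, against 26.2% of all genes. Copg2 shares 17.8% of its exonic bases with the imprinted gene Mest on the opposite strand, which had 80 and 40 counts. Without knowing whether counting used strand, reads of the pair cannot be told apart.

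**Figure D3:**
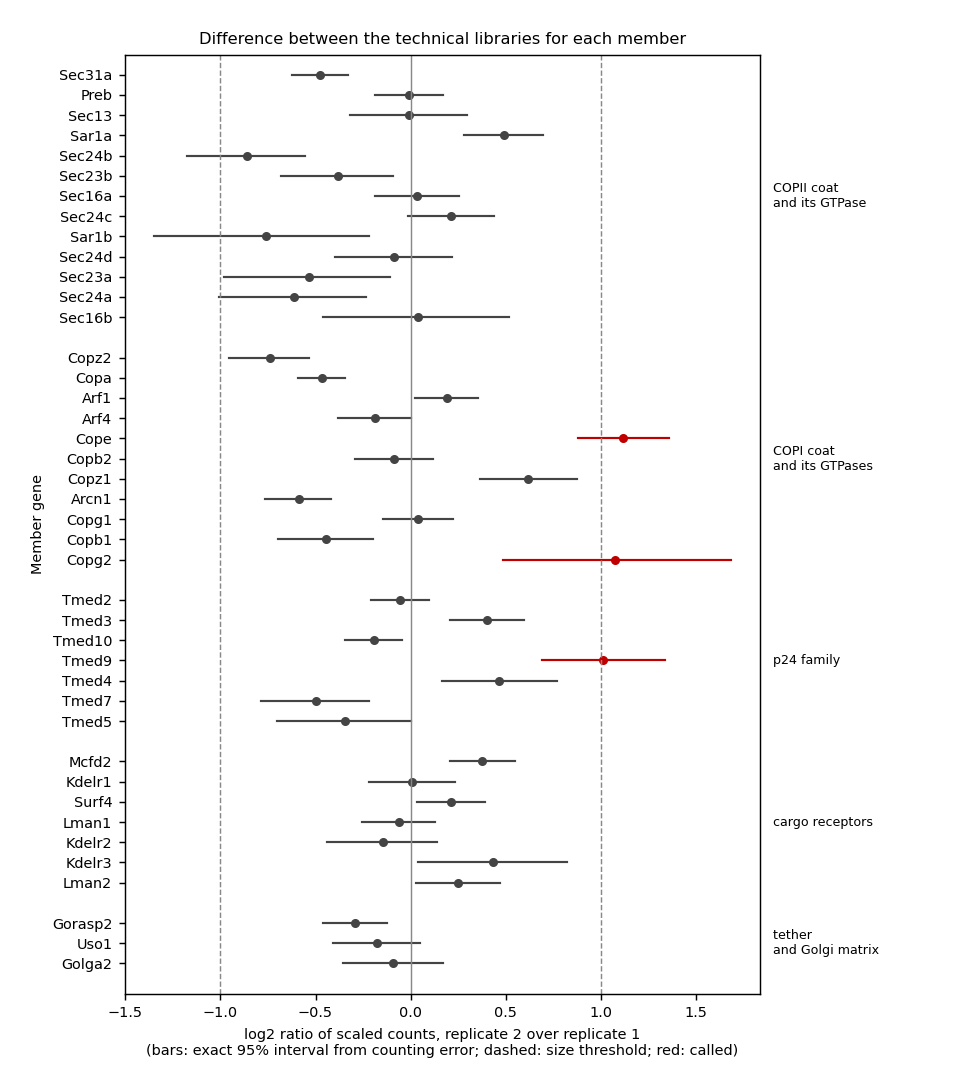
The log2 ratio of scaled counts for each member, replicate 2 over replicate 1, with exact 95% intervals from counting error, a solid line at 0 and dashed lines at the size threshold of 1 in either direction. Cope at 1.12, Copg2 at 1.07 and Tmed9 at 1.01 are the called members, in red, and their intervals reach below 1.

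Gene-level TPM of several members lay mostly on transcript models that are not complete coding ones. A transcript was taken as complete coding where GENCODE M21 types it as protein coding with both ends found, a split added after the isoform tables had been seen. Among the 27 members with 2 or more transcripts and a mean of at least 100 counts, 9 held under 50% of their TPM on such transcripts in both libraries, against 565 of 3649 coding genes (15.5%). In replicate 1 alone 12 members and 843 of the 3649 genes were under 50%, and in replicate 2 alone 9 members and 763 genes. The median share was 79.9% and 72.3% in the members and 86.0% and 84.4% in all these coding genes.

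The 9 members, with their shares in replicates 1 and 2, were as follows. Sec31a had 6.09% and 14.5%, Copz2 had 7.97% and 37.3%, and Copa had 25.8% and 34.4%. Sec16a had 22.4% and 22.3%, Sec24b 27.1% and 31.1%, and Sec23b 38.1% and 41.8%. Tmed2 had 44.9% and 40.1%, and Golga2 had 45.0% and 28.9%. Preb had 2.71% and 6.85%, but 11 of its 12 deposited transcripts are not in GENCODE M21, so its share rests on the annotation release. Preb also shares 21.8% of its exonic bases with Abhd1 on the opposite strand, which had 11 and 7 counts.

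**Figure D4:**
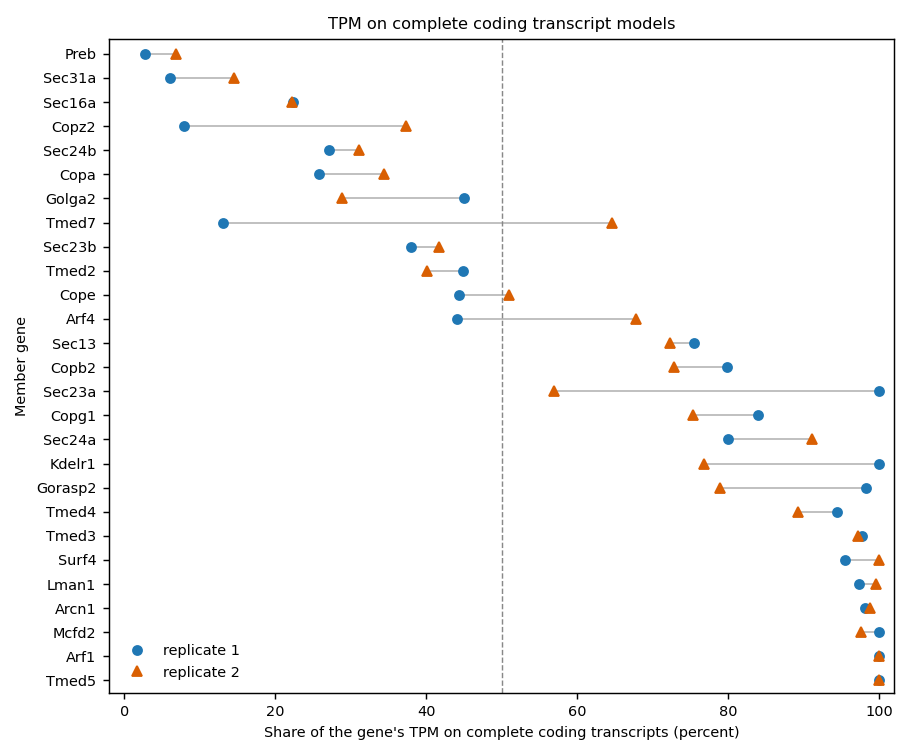
Share of each gene's TPM on complete coding transcripts, in percent, for the 27 members with 2 or more transcripts and a mean of at least 100 counts, with a circle for replicate 1 and a triangle for replicate 2. For 9 members both points lie left of the dashed line at 50%.

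Copz2 (chromosome 11, 96849870 to 96861203) had most of its TPM on a short model. Its transcript Copz2-203, typed as a target of nonsense-mediated decay with an end not found, has 6 exons and 581 bases. This model stood at 139 and 35.0 TPM. The coding transcript Copz2-201, with 9 exons, stood at 12.5 and 23.3 TPM. The short model was higher in replicate 1 and the coding model was higher in replicate 2, so the gene and its coding transcript were ordered in opposite ways between the libraries.

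Sec31a (chromosome 5, 100361649 to 100416234) was alike in form. Sec31a-205, a coding model with an end not found, has 7 exons at the 3′ end of a gene whose full model has 28. The first of these covers only an inner part of the matching exon of Sec31a-201. Sec31a-205 stood at 75.8 and 27.5 TPM against 5.96 and 4.77 TPM for Sec31a-201. Copa (chromosome 1, 172082529 to 172122330) had most of its TPM on Copa-202, a retained-intron model of 11 exons against 33 in Copa-201, at 42.9 and 21.2 TPM. In replicate 1 Arf4 had 46.1% of its TPM on Arf4-203, typed as a target of nonsense-mediated decay, and 23.9% in replicate 2. Arf4-203 has 6 exons, as many as Arf4-201, and is not a short model like the others. Copz2-203, Sec31a-205, Copa-202 and Arf4-203 were all higher in replicate 1. The assignment of reads between models that share exons was not tested.

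**Figure D5:**
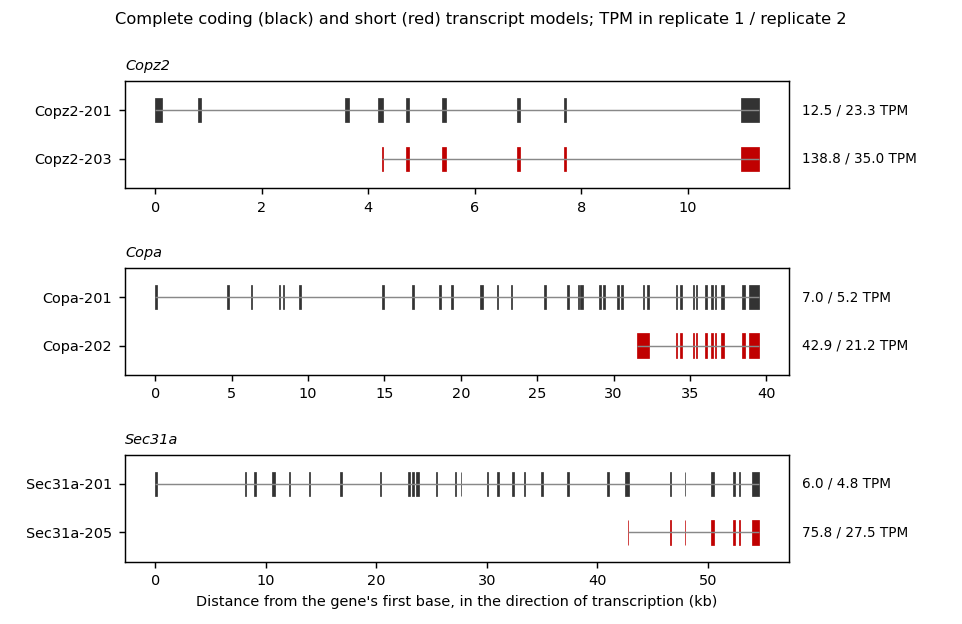
Exons of a complete coding model (black) and of the short model with the highest TPM (red) for Copz2, Copa and Sec31a, in kb from the first base of the gene, with the TPM of each model in replicates 1 and 2 at the right. Each red model starts well inside the gene and shares its 3′ exons with the black one.

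The joins that set the Copz2, Arf4 and Copa models apart are shown next because they tell each coding transcript from its partner. They are read from GENCODE M21 transcripts, 5′ to 3′ with 24 bases on each side, and capitals mark the bases that the other transcript of the pair lacks. The position beside each name is that of the bases after the join, on the plus strand of GRCm38. Copz2-203 uses an acceptor 4 bases further on than Copz2-201, Arf4-203 one that adds 26 bases, and Copa-202 keeps a 189-base intron, of which the first 24 bases are printed.
Copz2-201, chr11:96855256-96855283: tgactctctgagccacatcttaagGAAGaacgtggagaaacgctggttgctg
Copz2-203, chr11:96855260-96855283: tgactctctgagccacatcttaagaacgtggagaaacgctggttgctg
Arf4-201, chr14:26646914-26646937: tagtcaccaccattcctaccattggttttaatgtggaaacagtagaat
Arf4-203, chr14:26646888-26646937: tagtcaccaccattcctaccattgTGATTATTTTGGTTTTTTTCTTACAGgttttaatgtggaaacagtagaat
Copa-201, chr1:172115023-172115046: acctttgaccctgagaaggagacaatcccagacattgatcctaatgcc
Copa-202, chr1:172114834-172114857: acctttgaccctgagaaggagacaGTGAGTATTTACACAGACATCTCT

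Class sums were also taken over complete coding transcripts alone. The COPII sum was 94.0 TPM in replicate 1 and 79.7 TPM in replicate 2, in place of 277 and 189 TPM. The COPI sum was 199 and 201 TPM, in place of 437 and 308 TPM. The p24 sum was 133 and 130 TPM, the receptor sum 149 and 137 TPM, and the tether and matrix sum 58.7 and 34.5 TPM. By this sum COPI was 199 TPM in replicate 1 and slightly higher in replicate 2, whereas the COPII sum kept its order between the libraries.

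The other genes of the pathway came from 6 lists with 83 genes, of which 82 were tested, 6 were called higher in replicate 2 and 2 lower, against 12.3% of all genes called in either direction, so these calls are no result about the lists. By gene-level TPM several stood above most members. Tmed6, a p24 protein outside the member list, was at 129 and 84.3 TPM, above Tmed2 by 2.10-fold (1.90 to 2.31) and 1.74-fold (1.53 to 1.97), a pair picked after its values were seen. Tmed11 was at 67.9 and 40.3 TPM, the lectin Lman2l at 2.87 and 3.78 TPM, and Lman1l is listed at 0 in both. Among ER exit partners, none of 11 called, Mia3, the TANGO1 receptor for bulky cargo, was at 44.3 and 30.9 TPM, the GTPase Rab1a at 33.6 and 16.5 TPM, and Mia2 at 27.3 and 17.3 TPM. On complete coding transcripts Mia3 stood at 14.46 and 4.97 TPM and Mia2 at 13.45 and 9.46 TPM, below Rab1a in both libraries.

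Of the 10 genes of the ER-Golgi intermediate compartment and related receptors, Ergic3 was at 53.8 and 26.7 TPM, Ergic2 at 49.1 and 23.5 TPM and Bcap31 at 16.8 and 15.4 TPM. On complete coding transcripts Ergic3 stood at 12.2 and 11.4 TPM and Ergic2 at 7.46 and 3.71 TPM. Both were then below Bcap31, and Ergic3 stayed above Ergic2. Yif1b (2.80 and 8.34 TPM) and Tmem115 (1.41 and 3.45 TPM) were called higher in replicate 2. Among 11 Arf genes and regulators Arf5 led at 13.8 and 20.3 TPM, followed by the COPI GTPase-activating proteins Arfgap1 at 12.2 and 14.8 TPM and Arfgap3 at 11.6 and 12.7 TPM. Arfgap2, at 8.53 and 11.3 TPM, was called higher. Of 39 tethers and SNAREs, the fusion protein Stx5a was at 42.7 and 36.6 TPM and the GTPase Rab2a at 34.1 and 22.5 TPM. On complete coding transcripts Stx5a stood at 25.8 and 19.8 TPM, below Rab2a in both libraries. Use1 (17.5 and 34.4 TPM), Trappc6a (3.63 and 9.34 TPM) and Cog2 (2.19 and 5.33 TPM) were called higher and Rab6a (18.7 and 7.62 TPM) lower. Of 6 regulators of secretory genes, Xbp1 stood at 110 and 99.1 TPM and the acinar factor Bhlha15 at 25.8 and 29.1 TPM, while Creb3l1, at 20.97 and 7.48 TPM, was called lower in replicate 2.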

How the data were processed

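Per the deposited README files, values rest on genome mm10 and the GENCODE M4 annotation. No aligner, quantifier or use of strand in counting is named in the sources used here. According to the headers, the authors deposited an expected count, TPM and FPKM per gene and transcript, a posterior mean TPM entered as a signal, a posterior standard deviation of the count entered as a score, and the percent of each isoform in its gene. The posterior standard deviation was 0 in both libraries for 39 of 41 members. The planned comparison of member protein sequences was not made. Symbols came from GENCODE M21 on GRCm38, and 42462 of 43346 gene identifiers and 101510 of 103639 transcripts matched. Members and lists were chosen with earlier results of these data known. All members are named; of each other list the 3 highest genes by mean TPM and every called gene are named, and of each marker list the highest.

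Expected counts were rounded. Library totals were scaled by TMM factors (edgeR 4.0.16, R 4.3.3), and genes averaging 10 or more counts entered a two-sided exact binomial test, adjusted by Benjamini-Hochberg over all genes, because 1 library on each side leaves no residual degrees of freedom for a quasi-likelihood fit. Log2 ratios had 0.5 added to both counts. Intervals are exact Clopper-Pearson at 95%. The test was tried on simulated data. DESeq2 1.42.0 size factors, other scalings, count filters, posterior means, assumed dispersions of 0.01 and 0.1, a GC and length trend and each library alone were alternatives. BLAST+ 2.17.0 located nuclear copies of mitochondrial genes. Scripts ran in Python 3.11.15 with scipy 1.17.1, pandas 2.3.3, numpy 2.4.6 and, for plots, matplotlib 3.10.9. The motif search and the split into complete coding transcripts were chosen after seeing the data.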

Additional observations from a re-analysis of the deposited data

How the results depend on the processing

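The 3 calls among members (12.3% of all genes called) became 9 with library totals (23.7%) and 9 at a 1.5-fold size threshold (26.2%). They became 1, of 40 members tested, with the GC and length trend removed (7.91%), and 0 at an assumed dispersion of 0.1 in edgeR's exact test (0.361%). Under the other 7 alternatives the count was 2 or 3. The log2 ratios of Cope, Copg2 and Tmed9 stayed above 0 under all 11 alternatives. The count filters and the 1.5-fold threshold leave these ratios unchanged, and another scaling shifts every gene alike. Since the 3 genes were picked for ratios of at least 1, this sign was largely fixed by that choice. Of the 41 members, 36 reached 5 TPM in both libraries and 40 reached 1 TPM on complete coding transcripts. Summed TPM without the dominating RNAs was 428.4 for COPII, 683.6 for COPI, 308.7 for p24, 270.6 for the receptors and 101.3 for the tether class. On complete coding transcripts, an alternative chosen after seeing the data, the sums were 86.8, 199.7, 131.7 and 143.2 TPM for COPII, COPI, p24 and the receptors. With posterior means the p24 sum was 157.8 and the receptor sum 141.7.

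As mean log2 ratios over the libraries, complete coding transcripts reversed Copz2 over Copz1 (-0.28), Tmed2 over Tmed3 (-0.92), Sec24b over Sec24c (-1.46) and Tmed7 over Tmed5 (-1.71). Sec24b over Sec24c was -0.95 per length of the longest coding transcript, 1.75 per length of the dominant transcript and 0.71 with posterior means, and ranged from -0.21 to 0.87 in single libraries. Tmed7 over Tmed5 was -0.22 with posterior means and -0.49 per length of the dominant transcript, 2.13 per length of the longest coding transcript, and ranged from -0.28 to 0.42 in single libraries. Copg1 over Copg2 was 3.36, and 1.86 with posterior means, and Arf1 over Arf4 was 0.25, and 1.12 on complete coding transcripts. The cause of these shifts and reversals was not tested. No paired analysis was possible because there is 1 group. Depth limits the low members most, since Copg2 had 41 counts and Sar1b 39 in its lower library.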
